A study of Mus musculus with 9 samples.

Results

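The antiviral interferon-stimulated genes were read as 38 rows of the 55536 in an expression table of mouse acute myeloid leukemia (AML) cells. They were chosen by gene symbol, and each symbol matched exactly 1 row. They are genes that cells switch on after interferon, and many of their products act against viruses. The question here was how their levels differed between c-kit- and c-kit+ leukemia cells and between c-kit+ cells of the 2 genotypes. No measured value took part in the choice, but earlier results of these data were known when it was made.

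The 9 libraries were bulk RNA from 3 sorted populations with 3 libraries each. The AML-WT-c-kit- libraries came from wild-type leukemia cells without the surface receptor c-kit, a marker of primitive leukemia cells, and the AML-WT-c-kit+ libraries from those with it. The third population was labelled AML-IRF7-/--c-kit+, from cells of mice in which exons 2 and 3 of Irf7 were replaced by a PGK-beta-geo cassette. All 9 shared the MLL-AF9 fusion oncogene, delivered with GFP by a retrovirus, and the C57BL/6J strain. All were GFP+ cells given to C57BL/6J recipients 6 to 8 weeks old without irradiation, and they were sorted from bone marrow on day 18. No AML-IRF7-/--c-kit- cells were profiled. The labels do not say whether libraries of a group came from separate mice, so each p-value measures only the spread between these libraries.

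Interferons released by an infected or alarmed cell bind receptors on other cells, and JAK kinases then phosphorylate STAT2. It joins IRF9 in a complex that binds the interferon-stimulated response element (ISRE) in front of their target genes. IRF7 is known for driving transcription of the type I interferons themselves and is itself induced by interferon. Many of the 38 genes sense viral RNA or DNA, block translation or entry, or tag proteins with ISG15, and in leukemia cells the same genes can be switched on with no virus present.

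Values are in TPM, a unit that scales each gene by its length and each library by its total, so that levels of different genes can be set side by side. Irf7 stood at 23.5, 22.3 and 32.3 TPM where wild-type cells lacked c-kit, but only at 5.31, 3.91 and 3.36 TPM where they carried it. The 3 libraries with the AML-IRF7-/--c-kit+ label held 12.8, 5.97 and 7.95 TPM, more than any wild-type c-kit+ library. The paper states that it checked IRF7 expression in its models by qRT-PCR and Western blot. A gene-level value cannot show whether the replaced exons were missing, so it neither bears out nor contradicts the label. The exons after the replaced ones could still be read, and whether these reads came from them was not tested. These libraries are therefore called the labelled libraries below, and every direction drawn from them rests on the label. Kit, the gene of c-kit, was at most 3.03 TPM across AML-WT-c-kit- and at least 50.7 TPM in all 6 c-kit+ libraries. Hoxa9 and Meis1, genes that MLL-AF9 keeps on, were at least 162 and 35.4 TPM in every library, and the T cell and NK cell genes Cd3e and Ncr1 were at most 0.22 TPM. The T cell list of 7 genes summed to at most 2.61 TPM in wild-type and 3.13 to 5.18 TPM in the labelled libraries, where Lck made up 3.68, 1.17 and 2.95 TPM. In bulk RNA, fewer cells of a type and less RNA per cell cannot be told apart.

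The DNA in front of these genes shows what they share. RefSeq start sites on mouse build GRCm38.p6 gave a window, from 250 bases before the start to 50 after it, for 27 of the 38 members. The letters GAAA, any 2 bases and GAAA again, which are the core of the ISRE, were searched in each window on both strands, with overlapping matches counted and joined in print. They were found in 15 of the 27 members (55.6%), against 3.99% of the 27025 genes with a window and 3.44% of all 32851 windows. The letters TTC, any 3 bases and GAA of the GAS element, an interferon-gamma activated site, were found in 7 members (25.9%) and in 9.55% of genes. A match is a description of these letters and no evidence of binding. Isg15, with 3 matches, is shown as the member with most of them. Ifit1, Ddx60 and Rsad2 are shown for their high level in 1 labelled library, and Stat2 because it encodes part of the factor that binds the element. The paired genes Oas1a and Oas1g, and Ifit3 and Ifit3b, are shown because their stretches are nearly or wholly the same. Each stretch runs 5' to 3' on the strand of its gene, ends before the start site, and has the matches in capitals.
Isg15: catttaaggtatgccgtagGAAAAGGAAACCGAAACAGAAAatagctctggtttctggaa
Ifit1: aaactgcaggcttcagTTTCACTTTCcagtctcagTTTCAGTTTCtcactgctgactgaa
Ifit3: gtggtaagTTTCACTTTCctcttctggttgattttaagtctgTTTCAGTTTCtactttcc
Ifit3b: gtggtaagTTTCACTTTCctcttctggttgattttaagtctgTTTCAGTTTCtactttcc
Ddx60: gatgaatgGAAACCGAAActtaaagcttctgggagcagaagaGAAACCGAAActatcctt
Oas1a: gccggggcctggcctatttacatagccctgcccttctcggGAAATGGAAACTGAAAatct
Oas1g: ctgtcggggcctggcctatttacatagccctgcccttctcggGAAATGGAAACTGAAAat
Rsad2: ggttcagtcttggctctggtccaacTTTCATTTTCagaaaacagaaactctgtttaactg
Stat2: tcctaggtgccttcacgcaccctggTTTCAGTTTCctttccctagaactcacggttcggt
On GRCm38.p6 these stretches lie at chr4:156200856-156200915 (minus strand) for Isg15, chr19:34640769-34640828 (plus strand) for Ifit1, chr19:34583365-34583424 (plus strand) for Ifit3, chr19:34607761-34607820 (plus strand) for Ifit3b, chr8:61928026-61928085 (plus strand) for Ddx60, chr5:120907526-120907585 (minus strand) for Oas1a, chr5:120887614-120887673 (minus strand) for Oas1g, chr12:26456538-26456597 (minus strand) for Rsad2 and chr10:128270251-128270310 (plus strand) for Stat2. In Isg15 the 3 matches overlap into a single run, as the 2 do in each of Oas1a and Oas1g. In Ifit1 and Ddx60 the 2 matches stand apart. In Ddx58, Eif2ak2, Ifih1 and Ifitm3 the matches began after the start site. The windows of Cmpk2, Dtx3l, Herc6, Ifi35, Ifi44, Ifit2, Isg20, Oasl1, Oasl2, Samd9l, Trim25 and Xaf1 held none. Dhx58, Ifi27, Ifi27l2a, Mx1, Mx2, Oas2, Parp9, Parp14, Rtp4, Usp18 and Zbp1 had no window. Members also lie together in the genome. The 6 OAS genes are on chromosome 5, the 4 IFIT genes on chromosome 19, Mx1, Mx2, Parp9, Dtx3l, Parp14 and Rtp4 on chromosome 16, and Rsad2 and Cmpk2 on chromosome 12 with Ifi27 and Ifi27l2a. Oas1a and Oas1g share 57.6% and 45.2% of the 50-base words of their transcripts with each other, and Ifit3 and Ifit3b share 51.2% and 44.5%, so reads of these genes could have been split and their single values are uncertain.

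Summed over the 38 genes, the level came to 1223, 1139 and 1522 TPM for AML-WT-c-kit- but to 478, 442 and 464 TPM for AML-WT-c-kit+. In the labelled libraries 1, 2 and 3 it was 2675, 847 and 1203 TPM. AML-WT-c-kit+ was thus the lowest group with the narrowest spread, and by this sum the labelled libraries spanned a wider range than the 6 wild-type libraries together. A single gene, Ifitm3, supplied 624, 520 and 777 TPM of the c-kit- sums. To the labelled sums it added only 164, 20.6 and 37.7 TPM. The place of labelled library 2 below all c-kit- libraries therefore leaned on this gene. The median of the 38 genes was 10, 10.3 and 14.6 TPM per c-kit- library. Labelled library 2 lay among these at 13.8 TPM, and labelled libraries 1 and 3 lay above them at 42.5 and 19.1 TPM. AML-WT-c-kit+ again came lowest, with medians of 7.26, 6.12 and 5.93 TPM. By group means, the labelled libraries were highest and AML-WT-c-kit+ lowest, the order of the sums, in 19 of the 38 genes. In 9 others (Herc6, Ifit2, Oas1a, Oas1g, Oas2, Ifih1, Ddx58, Ddx60 and Ifi27) AML-WT-c-kit- was lowest instead. AML-WT-c-kit- was highest in 9 genes, among them Ifitm3, Mx1, Mx2 and Stat2, and AML-WT-c-kit+ only in Isg20.

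The first labelled library stood apart for these genes. It was the highest of its group in 38 of 38 members. Among genes with a group mean of at least 1 TPM it was the highest in 36 of 36 members and in 28.1% of all 13023. Of the 36 members with a group mean of at least 1 TPM, 27 were at least 2 times as high in it as in each of the other two, which held for 1.25% of 13023 genes. The ratio of library 1 to library 2 had a median of 3.54 (range 1.36 to 15.6) over the 38 members and of 0.991 over genes with that mean. To library 3 it had a median of 2.5 (range 1.09 to 8.92), against 0.993. The order of library 1 over library 3 over library 2 was found in 32 of 38 members and in 16.3% of the 13023 genes. No other library had such a step. In AML-WT-c-kit-, with the same cut on its own mean, library 3 was the highest in 27 of 35 members and in 28.8% of 13149 genes. It was at least 2 times both others in 5 of the 35, against 2.78% of those genes. No AML-WT-c-kit+ library was 2 times both others in any of 29 members with such a mean, though 0.718%, 1.33% and 1.40% of 12958 genes were in libraries 1, 2 and 3.

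Genes upstream of the members did not show that step. Of 35 genes of interferon signalling that averaged 1 TPM or more in that group, 12 were highest in library 1 and 0 were at least 2 times both others. Of 43 marker genes of cell types, 7 of them of leukemia progenitors, 14 were highest in library 1, and 1, C1qc at 1.75, 0.51 and 0.78 TPM, was 2 times both others. The 19 type I and III interferon genes in the table summed to 0.69, 0.39 and 0.81 TPM in the labelled libraries and to at most 0.93 TPM in any library, and Ifng to at most 0.06 TPM. RNA of cells outside the GFP+ sort was not measured, so interferon made by them cannot be seen in these values. Siglech, a gene of plasmacytoid dendritic cells, which are strong producers of interferon, was at most 0.14 TPM in the labelled libraries and at most 4.20 TPM elsewhere. Tcf4, from the same list of 7 genes, was 60.7, 87.0 and 64.9 TPM in the labelled libraries. It was 97.5, 92.6 and 64.75 TPM across AML-WT-c-kit- and 15.5 to 24.2 TPM across AML-WT-c-kit+. Runx2, also listed, was 18.6, 26.0 and 21.8 TPM in the labelled libraries and 30.5 to 36.8 TPM across AML-WT-c-kit+. The list summed to 80.4, 116 and 87.7 TPM in labelled libraries 1, 2 and 3. Its sums were 46.7 to 61.6 TPM across AML-WT-c-kit+ and 112 to 145 TPM across AML-WT-c-kit-. Whether a feature of the mouse, the sort or the library preparation went with the high values of library 1 was not tested.

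**Figure D1:**
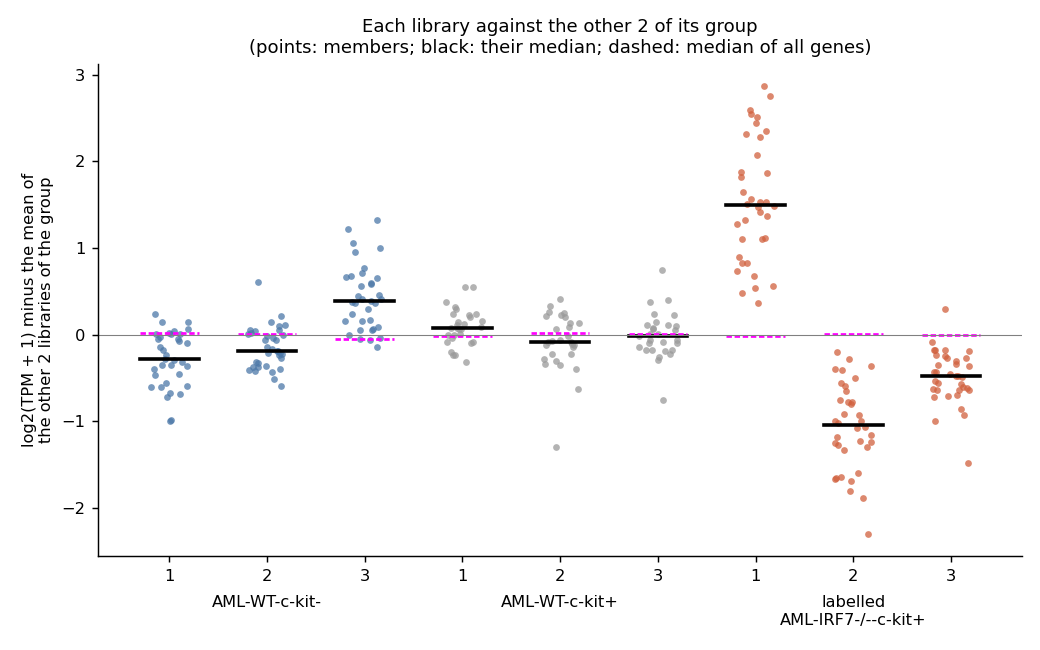
Difference on the log2(TPM + 1) scale between each library and the mean of the other 2 of its group. Points are members with a group mean of at least 1 TPM. The black line is their median and the dashed line the median of all genes with such a mean. Labelled library 1 has a median of 1.5 and no member below 0.36, while its median over all genes is -0.01. The AML-WT-c-kit+ medians lie between -0.08 and 0.08, and AML-WT-c-kit- library 3 has a median of 0.39.

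The first comparison asked how c-kit+ cells of the labelled libraries differed from AML-WT-c-kit+. Genes were called higher or lower where the fitted difference in log2(TPM + 1) reached 1 up or down and limma's p, adjusted over all genes tested, was under 0.05. Of 38 members, 34 passed the filter of at least 1 TPM in 3 of the 6 libraries, and 23 of these were higher and 0 lower by limma (0 lower also at an unadjusted p under 0.05), with 6.30% of 13238 genes higher and 5.39% lower. Of the 34, 31 had a log2 fold change above 0, as had 61.1% of genes, and the median was 1.49 against 0.12 over all genes. Usp18, Ifit1, Oasl1, Rsad2 and Rtp4 passed the filter only through the labelled libraries and so had to differ. Among the 27 members with a mean of at least 10 TPM over the 9 libraries, 16 were higher and 0 lower (0 also at an unadjusted p), with 3.49% and 4.54% of 8643 such genes. That mean includes the labelled libraries, so this cut is not free of them either. Isg15, Oas1g, Oasl2, Ifih1 and Rtp4, under 10 TPM in every wild-type library, reached it only through the labelled libraries. In 28 of the 34 tested members all 3 labelled libraries lay above all 3 AML-WT-c-kit+ libraries, which held for 39.0% of genes tested. A single gene cannot go below p = 0.1 in an exact two-sided permutation test of 3 libraries against 3.

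Without labelled library 1, and with the same genes tested, 18 members were higher and 1, Isg20, was lower, with 6.04% and 5.11% of genes. The median log2 fold change was then 1.07. Ifit2, Dhx58, Ddx60, Cmpk2 and Ifi35 lost their call, at log2 fold changes of 0.89, 0.95, 0.95, 0.67 and 0.82. Where the filter was set anew on 5 libraries, which removed the 5 members seen only in the labelled libraries, 13 were higher and 1 lower, with 4.45% and 5.28% of genes. Without AML-WT-c-kit+ library 2 the count was 15. With the genes tested as with all 6 libraries, 14 members kept the call whichever library was left out: Usp18, Ifit1, Oas1a, Oas1g, Oasl1, Oasl2, Ifih1, Zbp1, Bst2, Parp14, Rtp4, Ifi27, Ifi27l2a and Xaf1. With the filter set anew, Usp18, Ifit1, Oasl1 and Rtp4 were not tested once a labelled library was left out. Isg15 and Oas3 lost it whichever AML-WT-c-kit+ library was left out. Oas2 lost it without AML-WT-c-kit+ library 2 or 3 or labelled library 3. Rsad2 lost it whichever AML-WT-c-kit+ library was left out and without labelled library 3, with adjusted p up to 0.0994. Dhx58, Ddx60 and Cmpk2 also lost it whichever AML-WT-c-kit+ library was left out, with adjusted p up to 0.0689, 0.0525 and 0.0940, and Ifit2 without AML-WT-c-kit+ library 2. With the 10 most abundant genes left out and the rest rescaled, 20 members were higher, Ifit2, Cmpk2 and Ifi35 being lost.

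**Figure D2:**
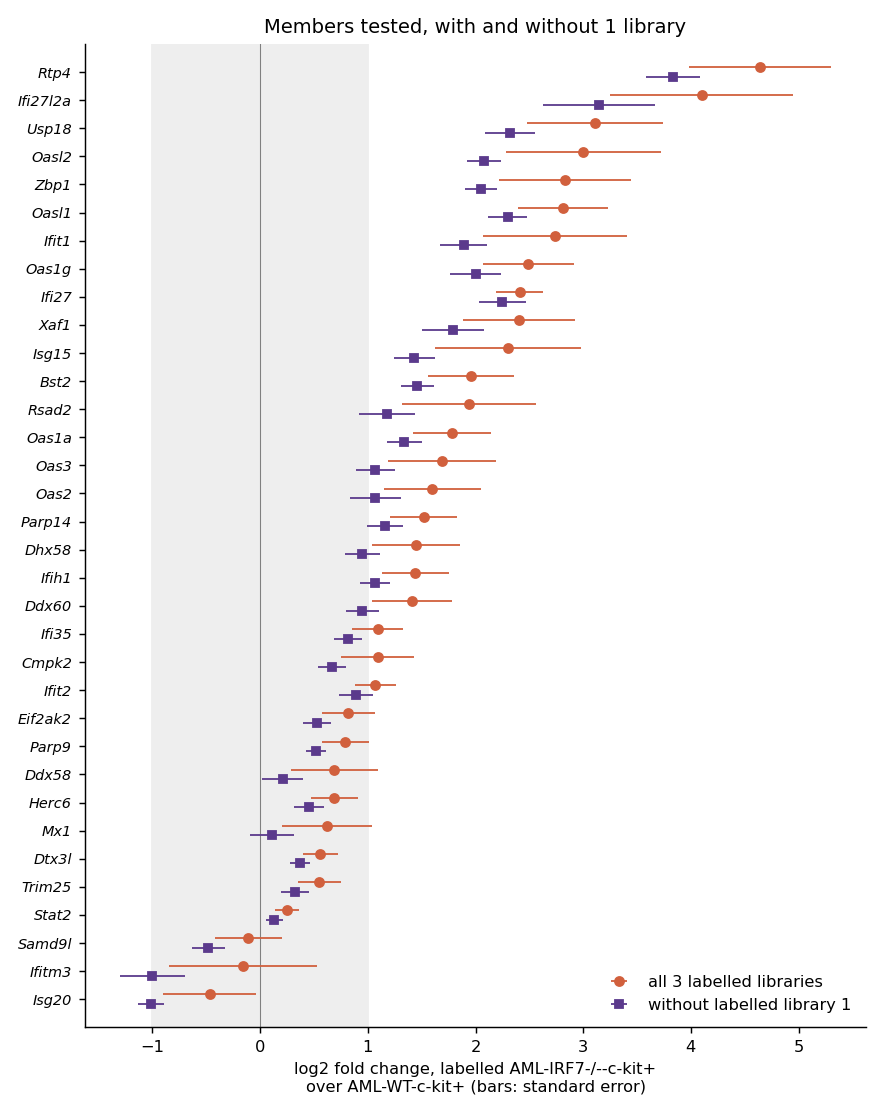
Log2 fold change of the 34 members tested, labelled libraries over AML-WT-c-kit+, with all 3 labelled libraries (circles) and without labelled library 1 (squares), with standard errors. The gray band spans -1 to 1. Every member shifts to a lower value without library 1, from 4.64 to 3.83 for Rtp4 and from -0.16 to -1.0 for Ifitm3, and the standard errors shrink for most.

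In the ISG15 system, 2 of 4 genes were higher, beside 6.30% of all genes tested. Usp18 passed the filter only through the labelled libraries. Isg15, a ubiquitin-like protein that is joined to other proteins, was 6.37, 5.14 and 4.89 TPM across AML-WT-c-kit+ against 104, 13.7 and 19.6 TPM in the labelled libraries. Its log2 fold change was 2.30 (standard error 0.68, adjusted p = 0.0302), and the groups did not overlap. Usp18, the protease that removes ISG15 and also damps the interferon receptor, was 0.92, 0.63 and 0.84 TPM against 45.0, 6.24 and 10.1 TPM, a log2 fold change of 3.11 (standard error 0.63, adjusted p = 0.00729). Library 1 was 5.29 times library 3 for Isg15 and 4.45 times for Usp18. Herc6, which joins ISG15 to proteins in mice, and Trim25, a ubiquitin ligase that acts with RIG-I, had log2 fold changes of 0.69 and 0.55 (adjusted p = 0.0371 and 0.0608) and were not called.

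Both IFIT genes tested were higher (6.30% of all genes were), though Ifit1 passed the filter only through the labelled libraries and so had to differ. IFIT proteins bind foreign RNA and block its translation. Ifit1 was 0.26, 0.16 and 0.20 TPM across AML-WT-c-kit+ against 25.1, 2.70 and 4.43 TPM in the labelled libraries (log2 fold change 2.74, standard error 0.67, adjusted p = 0.0153). Ifit2 was less uneven, at 7.61, 5.66 and 7.94 TPM against 20.5, 13.2 and 14.4 TPM (log2 fold change 1.07, standard error 0.19, adjusted p = 0.00450). Ifit3 was not tested, being 0.35, 0.23 and 0.57 TPM against 5.31, 0.49 and 0.97 TPM, so libraries 1 and 3 lay above all 3 AML-WT-c-kit+ libraries and library 2 among them. Ifit3b stayed at or under 1.16 TPM in all 9 libraries.

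All 6 OAS genes were higher (6.30% of all genes were), though Oasl1 passed the filter only through the labelled libraries and so could not overlap. The enzymes OAS1, OAS2 and OAS3 make the messenger that turns on RNase L, and the OASL proteins resemble them. Oas1a was 20.6, 20.8 and 21.5 TPM across AML-WT-c-kit+ against 138, 45.2 and 65.8 TPM in the labelled libraries, a log2 fold change of 1.78 (standard error 0.36, adjusted p = 0.00751). Oas1g had a log2 fold change of 2.49, from 4.96, 7.05 and 5.11 TPM to 72.4, 20.1 and 32.2 TPM (adjusted p = 0.00374). Oas2 was 14.6, 10.5 and 11.5 TPM against 80.7, 20.7 and 33.9 TPM, and Oas3 was 3.78, 2.65 and 3.52 TPM against 31.8, 7.12 and 9.03 TPM. Their log2 fold changes were 1.60 and 1.69 (adjusted p = 0.0247 and 0.0296). Oasl1 rose from 0.29, 0.46 and 0.53 TPM to 19.3, 5.31 and 6.81 TPM (log2 fold change 2.81, adjusted p = 0.00220). Oasl2, a mouse protein that resembles ISG15 at one end, rose from 1.51, 1.94 and 1.41 TPM to 73.8, 10.6 and 9.53 TPM (log2 fold change 3.00, standard error 0.72, adjusted p = 0.0137). None of the 6 overlapped between the groups, and library 1 was the highest in each. Over all genes tested, 39.0% had every labelled library above every AML-WT-c-kit+ library.

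Of the 6 sensors of viral RNA or DNA, 4 were higher, beside 6.30% of all genes tested. Ifih1 (MDA5), a sensor of long double-stranded RNA, was 7.67, 6.49 and 6.60 TPM across AML-WT-c-kit+ against 34.9, 13.99 and 17.4 TPM in the labelled libraries (log2 fold change 1.44, adjusted p = 0.00867). Zbp1, a sensor of Z-form nucleic acid that can start cell death, went from 2.61, 2.14 and 2.05 TPM to 66.5, 11.5 and 13.6 TPM (log2 fold change 2.83, standard error 0.61, adjusted p = 0.00900). For Dhx58 (LGP2) and Ddx60, helicases that act with the sensors, the values were 10.5, 8.71 and 10.2 TPM against 58.3, 16.9 and 23.1 TPM, and 3.53, 3.25 and 3.43 TPM against 21.1, 6.67 and 8.47 TPM. Their log2 fold changes of 1.45 and 1.41 (adjusted p = 0.0253 and 0.0196) fell just below 1 without library 1. Ddx58, the gene of RIG-I, behaved otherwise. It was 15.0, 14.6 and 15.5 TPM against 48.6, 13.9 and 22.1 TPM, so labelled library 2 lay below every AML-WT-c-kit+ library (log2 fold change 0.69, adjusted p = 0.193). Eif2ak2, the kinase PKR, had a log2 fold change of 0.82 (adjusted p = 0.0338), short of the fold threshold.

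The membrane and GTPase effectors split. Bst2 (tetherin), which holds budding virus at the cell surface, was 35.8, 46.0 and 43.7 TPM across AML-WT-c-kit+ against 329, 103 and 132 TPM in the labelled libraries (log2 fold change 1.96, standard error 0.40, adjusted p = 0.00758). Ifitm3, which blocks virus entry through membranes, was 63.5, 42.3 and 67.7 TPM against 164, 20.6 and 37.7 TPM. Library 1 was above, and libraries 2 and 3 below, all 3 wild-type libraries, with a log2 fold change of -0.16 (standard error 0.69, adjusted p = 0.870). Mx1 was 1.88, 1.62 and 2.62 TPM against 8.39, 2.02 and 2.5 TPM (log2 fold change 0.62, adjusted p = 0.266). Mx2, annotated as a polymorphic pseudogene, was under 1 TPM across AML-WT-c-kit+ against 6.87, 0.44 and 1.41 TPM in the labelled libraries and was not tested. For Mx1 and Mx2 the groups overlapped. Whether RNA of either gene gave working protein in this strain was not measured.

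Of the enzymes that act on nucleotides and RNA, Rsad2 and Cmpk2 were higher, Rsad2 having passed the filter only through the labelled libraries. Rsad2 (viperin), which makes a chain-terminating nucleotide, was 0.26, 0.53 and 0.26 TPM across AML-WT-c-kit+ against 13.7, 1.38 and 2.88 TPM in the labelled libraries (log2 fold change 1.94, adjusted p = 0.0395). Cmpk2, its neighbor and a nucleotide kinase, was 12.7, 10.9 and 13.2 TPM against 49.9, 18.5 and 21.7 TPM (log2 fold change 1.09, adjusted p = 0.0366). Isg20, an exonuclease, was 16.7, 15.7 and 17.5 TPM against 26.2, 7.03 and 8.46 TPM. Its log2 fold change was -0.47 (adjusted p = 0.405) with library 1 and -1.01 (standard error 0.12, adjusted p = 0.00313) without it. Samd9l, which can halt translation, was 20.8, 16.7 and 21.96 TPM against 30.9, 12.5 and 15.35 TPM (log2 fold change -0.11, adjusted p = 0.793). Ifitm3, Isg20 and Samd9l were the 3 members in which labelled libraries 2 and 3 both lay below every AML-WT-c-kit+ library, which held for 19.3% of all genes, while both lay above in 30 of 38 members and 43.8% of genes.

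Stat2, which carries the signal into the nucleus, was not called, at 33.4, 36.3 and 34.6 TPM against 49.2, 36.2 and 39.8 TPM (log2 fold change 0.25, standard error 0.11, adjusted p = 0.116). Parp9 and Dtx3l, which encode partners in one complex and overlap on opposite strands, had log2 fold changes of 0.79 and 0.56 (adjusted p = 0.0248 and 0.0266) and were not called. The kit named in the labels does not mark strand, so reads of the overlap could not be told apart. Parp14, a related enzyme, was 3.11, 4.33 and 3.38 TPM against 20.95, 9.93 and 8.53 TPM (log2 fold change 1.52, standard error 0.31, adjusted p = 0.00758).

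The largest differences were among the remaining genes, where all 5 tested were higher, beside 6.30% of all genes. Of these, Rtp4 passed the filter only through the labelled libraries. Rtp4, which binds receptors on their way to the membrane, was 0.33, 0.19 and 0.30 TPM across AML-WT-c-kit+ against 97.0, 12.8 and 22.7 TPM in the labelled libraries (log2 fold change 4.64, standard error 0.66, adjusted p = 0.00185). Ifi27l2a was 4.70, 1.43 and 5.27 TPM against 286, 25.3 and 57.4 TPM (log2 fold change 4.10, standard error 0.85, adjusted p = 0.00793). Its relative Ifi27 was more even, at 69.8, 56.3 and 55.3 TPM against 404, 226 and 372 TPM (log2 fold change 2.41, standard error 0.22, adjusted p = 0.000383). Library 1 was only 1.09 times library 3 for Ifi27, the smallest such ratio of the 38. Xaf1, known for promoting cell death, was 6.90, 5.75 and 3.32 TPM against 73.8, 17.1 and 24.0 TPM (log2 fold change 2.40, adjusted p = 0.00959). Ifi35 had a log2 fold change of 1.09 (adjusted p = 0.00945), from 24.4, 25.02 and 21.04 TPM to 75.4, 37.5 and 47.1 TPM. Ifi44 was listed at 0 in all 6 wild-type libraries and at 0.37, 0.11 and 0.06 TPM in the labelled libraries.

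**Figure D3:**
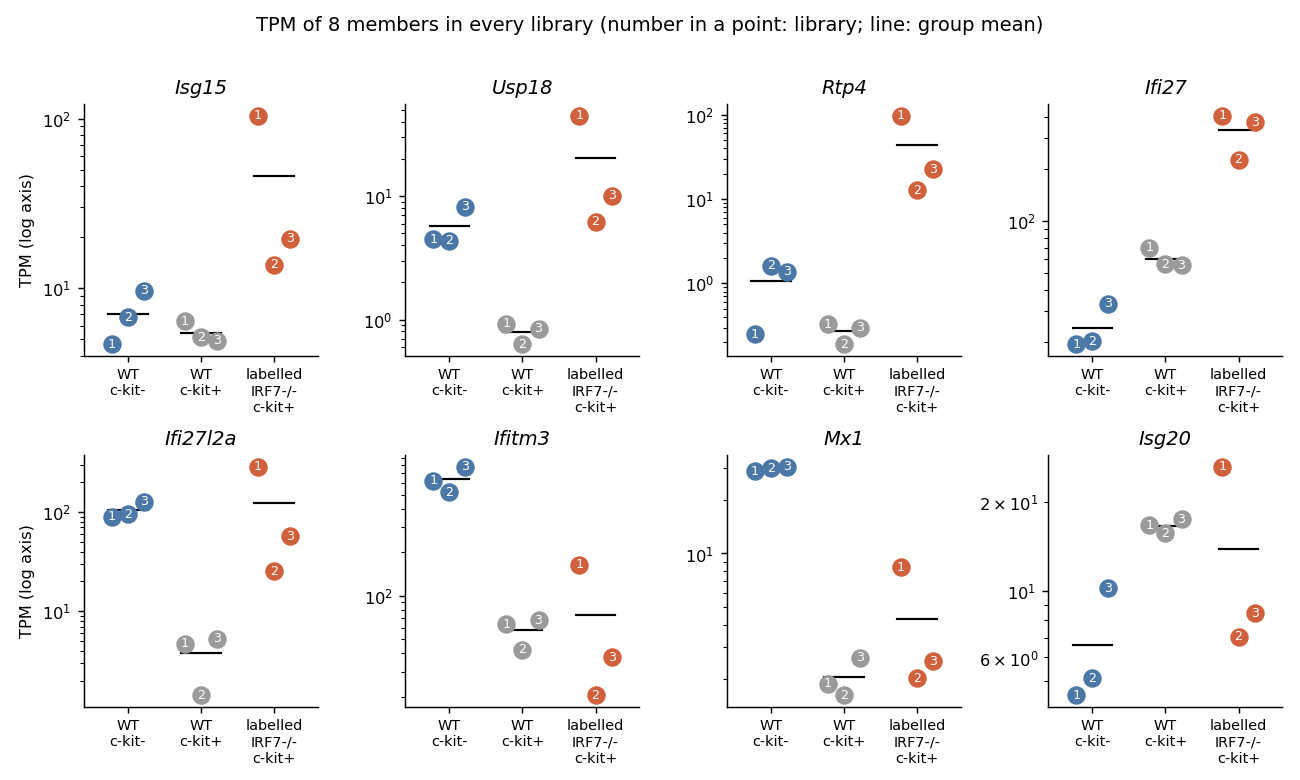
TPM of 8 members on a log axis in each library, with the library number in the point and a line at the group mean. For Isg15, Usp18, Rtp4, Ifi27 and Ifi27l2a all labelled libraries lie above all AML-WT-c-kit+ libraries. For Ifitm3 and Isg20 only labelled library 1 does, while libraries 2 and 3 lie below them, and for Mx1 the labelled libraries 2 and 3 overlap AML-WT-c-kit+.

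Other genes were read in the same comparison. Of 61 genes of interferon signalling in the table, 36 were tested and 1 was higher and 4 were lower, beside 6.30% and 5.39% of all genes. Il10rb, a receptor chain shared with interleukin 10, was 41.8, 45.9 and 45.9 TPM against 102, 95.9 and 102 TPM (log2 fold change 1.15, adjusted p = 5.29e-05). Ikbke, a kinase of IRF3 and IRF7, fell from 157, 149 and 152 TPM to 61.3, 46.1 and 62.7 TPM (log2 fold change -1.43, adjusted p = 0.000256). Irf8, Irf5 and Ifnlr1 had log2 fold changes of -1.59, -1.20 and -2.46 (adjusted p = 0.00700, 0.0271 and 0.000702). Irf9 was 25.5, 27.7 and 24.7 TPM against 79.7, 36.0 and 42.2 TPM (log2 fold change 0.91, adjusted p = 0.0316), short of the fold threshold. Of 8 neutrophil markers, 7 were lower, and the list summed to 56712 to 110798 TPM across AML-WT-c-kit+ against 1600 to 2523 TPM in the labelled libraries. Macrophage markers summed to 36.1 to 57.9 and 63.0 to 85.5 TPM, and monocyte markers to 2253 to 2660 and 2644 to 3299 TPM. Most of these sums was Adgre1 (log2 fold change 0.95) and Ly6c2 (0.29), neither called. Others of these lists, also uncalled, went both ways. C1qa, C1qb, C1qc and Csf1r had log2 fold changes of -0.66, -0.65, -0.87 and -0.76, and Ccr2, Ms4a6c and Cd163 of 0.61, 0.41 and 0.47. Among markers of other cells, Lck, Tie1, Tcf4 and Pdgfrb were higher and Cd209a, Cx3cr1 and Cd14 lower. The part of these cell types in the members' differences was not tested.

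The second comparison asked how AML-WT-c-kit+ differed from AML-WT-c-kit-. Of 32 members tested, 12 were lower and 4 higher in AML-WT-c-kit+, with 9.61% of 13261 genes lower and 4.83% higher. The median log2 fold change was -0.60, against -0.08 over all genes. Usp18, Ifit3 and Mx2 passed the filter only through AML-WT-c-kit- and so had to differ. Among the 26 tested members with a mean of at least 10 TPM, 8 were lower and 4 higher, with 8.30% and 3.61% of such genes. Mx1, under 10 TPM in all other libraries, reached that mean only through AML-WT-c-kit-. The libraries did not overlap for 19 members lower in AML-WT-c-kit+ and 4 higher, as for 34.7% and 19.7% of genes tested. Without AML-WT-c-kit- library 3 the lower count was 7 where the filter was set anew, and 10 with the same genes tested.

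The 5 largest falls spanned a membrane protein, a sensor and both Mx genes. Ifi27l2a fell from 89.5, 95.1 and 127 TPM across AML-WT-c-kit- to 4.70, 1.43 and 5.27 TPM (log2 fold change -4.55, standard error 0.36, adjusted p = 0.000143). Ifitm3, the most abundant member in AML-WT-c-kit-, fell from 624, 520 and 777 TPM to 63.5, 42.3 and 67.7 TPM (log2 fold change -3.46, standard error 0.21, adjusted p = 5.36e-05). Mx1 was the most even, at 28.8, 29.9 and 30.4 TPM against 1.88, 1.62 and 2.62 TPM (log2 fold change -3.35, standard error 0.14, adjusted p = 1.83e-05). Zbp1 fell from 15.1, 17.3 and 26.0 TPM to 2.61, 2.14 and 2.05 TPM (log2 fold change -2.61, adjusted p = 0.000136). Mx2 fell from 6.27, 9.64 and 10.5 TPM to under 1 TPM (log2 fold change -2.42, adjusted p = 0.000156). In each of these the lowest AML-WT-c-kit- library lay several times above the highest AML-WT-c-kit+ library. Usp18, Ifit3, Oas3, Oasl2, Parp14, Xaf1 and Trim25 were also lower, with log2 fold changes from -1.89 to -1.05. Oas3 lost its call without AML-WT-c-kit- library 3 or AML-WT-c-kit+ library 2, and Trim25, at a log2 fold change of -0.98, without AML-WT-c-kit- library 3 or AML-WT-c-kit+ library 1.

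The smaller falls reached the OAS genes and others. Xaf1 fell from 17.7, 18.3 and 16.1 TPM to 6.90, 5.75 and 3.32 TPM (log2 fold change -1.58, adjusted p = 0.00165), and Parp14 from 15.4, 12.9 and 14.8 TPM to 3.11, 4.33 and 3.38 TPM (log2 fold change -1.74, adjusted p = 0.000143). Oasl2 fell from 6.48, 7.72 and 9.37 TPM to 1.51, 1.94 and 1.41 TPM (log2 fold change -1.75, adjusted p = 0.000285), while its relatives Oas1a and Oas2 were not called (log2 fold changes 0.36 and 0.53, adjusted p = 0.135 and 0.313). The OAS genes thus held both called directions, Oas1g being higher and Oas3 and Oasl2 lower. Bst2 at 79.3, 84.9 and 79.1 TPM against 35.8, 46.0 and 43.7 TPM (log2 fold change -0.95, adjusted p = 0.000473) and Stat2 at 50.3, 50.3 and 50.1 TPM against 33.4, 36.3 and 34.6 TPM (log2 fold change -0.52, adjusted p = 0.000674) were clear of overlap but short of the fold threshold. For Isg15, at 4.67, 6.73 and 9.62 TPM against 6.37, 5.14 and 4.89 TPM, the groups overlapped (log2 fold change -0.27, standard error 0.24, adjusted p = 0.410). Ifih1 and Eif2ak2 had log2 fold changes of 0.10 and -0.03 (standard errors 0.14 and 0.13), neither past the threshold.

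The 4 that were higher in AML-WT-c-kit+ were a sensor, an OAS gene, an exonuclease and Ifi27. Ddx58 rose from 2.96, 3.57 and 7.87 TPM to 15.0, 14.6 and 15.5 TPM (log2 fold change 1.56, standard error 0.29, adjusted p = 0.00569). Ifi27 rose from 19.4, 20.2 and 33.1 TPM to 69.8, 56.3 and 55.3 TPM (log2 fold change 1.32, adjusted p = 0.00283). Isg20 rose from 4.48, 5.11 and 10.3 TPM to 16.7, 15.7 and 17.5 TPM (log2 fold change 1.28, adjusted p = 0.00853). Oas1g rose from 1.52, 2.49 and 2.95 TPM to 4.96, 7.05 and 5.11 TPM (log2 fold change 1.03, adjusted p = 0.00888). Oas1g lost its call, at 0.84, without AML-WT-c-kit- library 1 or AML-WT-c-kit+ library 2. All 4 were clear of overlap, and AML-WT-c-kit- library 3 was the nearest to the other group in each. That library also held the most neutrophil marker RNA of its group, 30402 TPM against 6113 and 7674 TPM, and the highest Kit, 3.03 against 0.52 and 1.19 TPM, whose part in this was not tested.

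Of 39 signalling genes tested, 14 were lower and 1, Ikbke, was higher in AML-WT-c-kit+, beside the 9.61% and 4.83% of all genes. The lower genes included both chains of the type I interferon receptor, Ifnar1 (log2 fold change -1.47, adjusted p = 3.16e-05) and Ifnar2 (-1.43, adjusted p = 4.53e-05). They included Irf7 (-2.38, adjusted p = 0.000154), Irf9 (-1.09, adjusted p = 0.000174), the endosomal receptors Tlr7, Tlr8 and Tlr9 with their escort Unc93b1, the adaptor Tmem173, the receptor chains Ifngr2 and Il10rb, and the factors Irf4, Irf5 and Irf8. Of 7 monocyte markers 6 were lower, and their list summed to 5100 to 6232 TPM across AML-WT-c-kit- against 2253 to 2660 TPM across AML-WT-c-kit+. Of 8 neutrophil markers 4 were higher and 1 lower. The part of these cell types in the members' differences was not tested.

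The third comparison set the labelled libraries against AML-WT-c-kit-. It shares libraries with both of the others, so its values and theirs are not independent, and it differs in both genotype label and c-kit sort. Of 36 members tested, 12 were higher and 3 lower, with 8.40% of 13510 genes higher and 11.9% lower. The median log2 fold change was 0.82 against 0.03 over all genes, and 0.30 without labelled library 1. Among the 27 with a mean of at least 10 TPM, 8 were higher and 2 lower, with 5.51% and 10.4% of such genes. Isg15, Oas1g, Ifih1 and Rtp4, among those that were higher, reached that mean only through the labelled libraries. The libraries did not overlap for 16 higher and 3 lower members, as for 34.7% and 32.4% of genes tested. The higher members were Isg15, Ifit1, Ifit2, Oas1a, Oas1g, Oas2, Oasl1, Ifih1, Ddx58, Ddx60, Rtp4 and Ifi27. Rtp4 was 0.25, 1.63 and 1.37 TPM across AML-WT-c-kit- against 97.0, 12.8 and 22.7 TPM (log2 fold change 4.0, standard error 0.71, adjusted p = 0.00286). Ifi27 had a log2 fold change of 3.73 (adjusted p = 6.58e-05), Oas1g of 3.51 (adjusted p = 0.000612) and Ddx58 of 2.24 (adjusted p = 0.00688). Ifit1 was 0.58, 0.57 and 1.22 TPM against 25.1, 2.70 and 4.43 TPM (log2 fold change 2.19, adjusted p = 0.0303). The 3 that were lower were Ifitm3, Mx1 and Mx2, at log2 fold changes of -3.62, -2.73 and -1.67 (adjusted p = 0.00391, 0.00132 and 0.0458). Even in labelled library 1, Ifitm3 at 164 TPM and Mx1 at 8.39 TPM were below every AML-WT-c-kit- library. Mx2 overlapped, since library 1 held 6.87 TPM, and it kept its call in only 1 of the 6 settings with a library left out, that without labelled library 1. It also lost it with no filter, a pseudocount of 0.1, quantile normalization and the replicate block. Isg15 lost its call whichever AML-WT-c-kit- library was left out and without labelled library 3 (adjusted p up to 0.118), Ifit1 whichever AML-WT-c-kit- library was left out (up to 0.0807), and Oas2 without AML-WT-c-kit- library 1 or 2 (up to 0.0511).

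Without labelled library 1 the count of lower members was 5, with Ifit3, 3.57, 3.18 and 5.94 TPM for AML-WT-c-kit- (log2 fold change -1.57, adjusted p = 0.00591), and Ifi27l2a (-1.40, adjusted p = 0.0191) added, and the same 12 were still higher, with 8.16% of all genes higher and 11.6% lower. Several members lower in AML-WT-c-kit+ did not pass the test in the labelled libraries against AML-WT-c-kit-. Ifi27l2a had a log2 fold change of -0.45 (standard error 0.79, adjusted p = 0.656), Zbp1 of 0.21 (standard error 0.63, adjusted p = 0.789), Xaf1 of 0.82 (standard error 0.49, adjusted p = 0.189) and Parp14 of -0.22 (standard error 0.30, adjusted p = 0.568). Library 1 was far above libraries 2 and 3 in each, and a missed threshold does not show equal levels. In labelled libraries 2 and 3 alone, Zbp1 at 11.5 and 13.6 TPM and Ifi27l2a at 25.3 and 57.4 TPM lay between the 2 wild-type groups. Ifnar1, Ifnar2 and Irf7 were lower in the labelled libraries than in AML-WT-c-kit-, at log2 fold changes of -1.18, -1.30 and -1.49 (adjusted p = 1.93e-05, 8.60e-06 and 0.00298), and of the 39 signalling genes tested 17 were lower and 0 higher by limma (6 had a log2 fold change above 0 at an unadjusted p under 0.05). The other 14 that were lower were Tyk2, Tmem173, Socs3, Ptpn6, Tlr7, Tlr8, Tlr9, Unc93b1, Ifngr2, Ifnlr1, Irf2, Irf4, Irf5 and Irf8. With all 6 libraries, 11.9% of all genes were lower and 8.40% higher in this comparison.

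**Figure D4:**
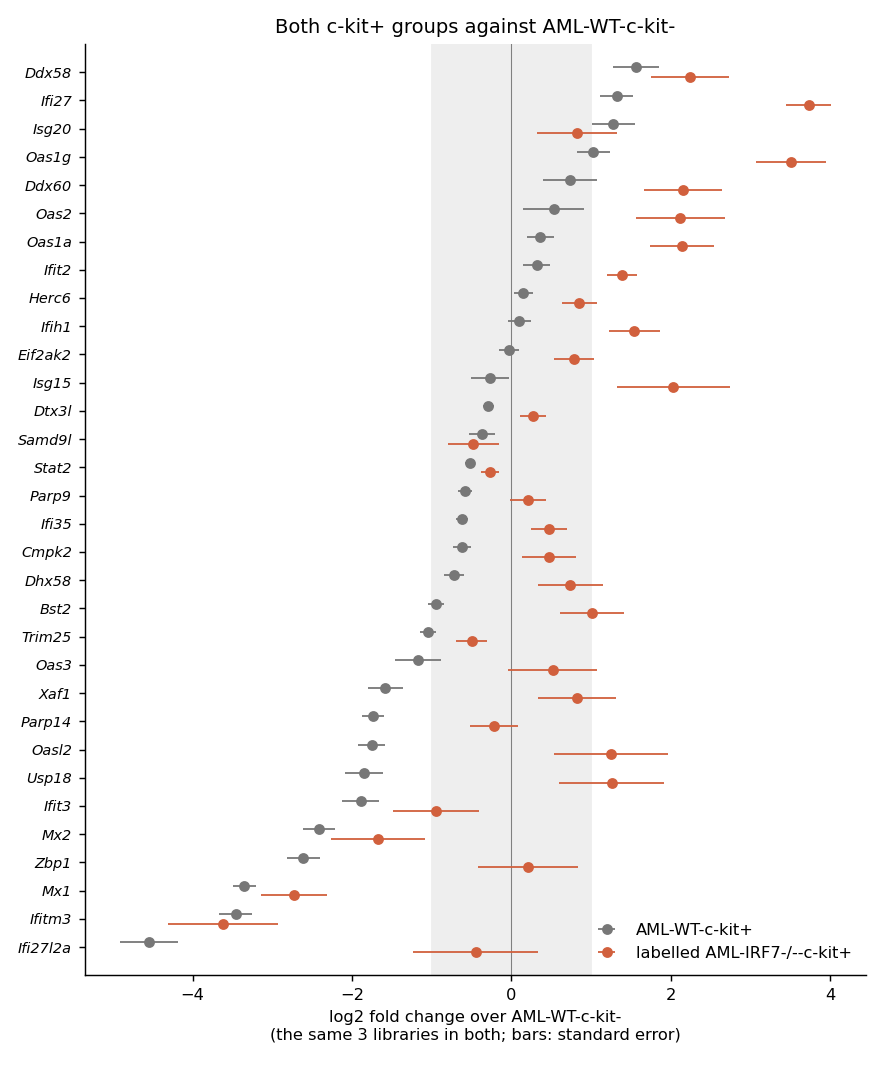
Log2 fold change over AML-WT-c-kit- of AML-WT-c-kit+ (gray) and of the labelled libraries (orange) for the 32 members tested in both, with standard errors. The 3 AML-WT-c-kit- libraries are the same in both, and the gray band spans -1 to 1. Ifitm3, Mx1 and Mx2 lie far left in both, Ddx58, Ifi27 and Oas1g lie right of 1 in both, and Zbp1 and Ifi27l2a lie far left in AML-WT-c-kit+ only.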

How the data were processed

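Bulk RNA of 9 libraries (3 per group) was measured. The authors deposited one table of gene-level values for 55536 genes, read here as TPM, scaled by the authors to gene length and library total. Its header names no unit, but each library summed to 987468 to 992231 and the smallest nonzero values fell with gene length. The labels name an RNA-seq kit, while the study's methods speak of a microarray. The aligner and genome build were not given in the sources used here; all 55536 gene identifiers were in GENCODE M21. TPM keep no depth, so the sequencing depth is unknown and no counting intervals are given. The 10 most abundant genes held 9.39 to 17.3% of a library's total.

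Members, gene lists and tests were chosen with earlier results of these data known. Samples were grouped by their labels. Genes with at least 1 TPM in 3 of the 6 libraries compared were tested on log2(TPM + 1) with limma 3.58.1 (R 4.3.3; lmFit, eBayes with trend), separately for each pair of groups, with Benjamini-Hochberg adjustment over all genes tested. A fold change is on that scale, which understates the change of low genes. The text names all 38 members, Irf7 and Kit as checks of the labels, genes of the signalling list past both thresholds, and defining markers; marker genes past both thresholds are named or counted. Values per library are given for the 5 largest rises and falls among members called in each comparison and for members whose call changed without labelled library 1, with others added. Promoter windows came from RefSeq. Other filters, pseudocounts, scalings and left-out libraries were tried. The code was tested on simulated data. Some genes are not reported here.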

Additional observations from a re-analysis of the deposited data

How the results depend on the processing

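With 3 libraries per group, counts of called members moved most when a library was left out. Leaving out 1 library at a time gave 13 to 25 members higher and 0 to 1 lower for the labelled libraries against AML-WT-c-kit+, where all 6 gave 23 and 0. The lowest count, 13, came without labelled library 1 and the next, 15, without AML-WT-c-kit+ library 2. Keeping the genes tested as with all 6 libraries, a setting chosen after seeing the data, gave 18 higher and 1 lower without labelled library 1 and 25 higher without labelled library 2, which gave 20 with the filter set anew. In the comparison of the wild-type groups the lower count ran from 7 to 12, the 7 without AML-WT-c-kit- library 3, and for the labelled libraries against AML-WT-c-kit- from 2 to 5, the 5 without labelled library 1. Uncalled members changed sign in a few settings. Over AML-WT-c-kit+, the log2 fold changes without labelled libraries 1, 2 and 3 were -1.0, 0.47 and 0.05 for Ifitm3 and -0.48, 0.14 and 0.00 for Samd9l. Between the wild-type groups Eif2ak2 was 0.12 with quantile normalization, 0.08 with the 10 most abundant genes left out, and -0.12 to 0.07 with 1 library left out (0.05 without AML-WT-c-kit- library 3). Over AML-WT-c-kit-, leaving out 1 library gave -0.10 to 0.91 for Oas3, -0.56 to 0.66 for Zbp1 and -0.06 to 0.36 for Parp9, lowest without labelled library 1. It gave -0.58 to 0.02 for Parp14 and -1.40 to 0.32 for Ifi27l2a, highest without labelled libraries 3 and 2. The cause was not tested. Over all genes, a filter of 5 TPM gave 531 higher genes against 834 for the labelled libraries over AML-WT-c-kit+, and 752 against 1135 over AML-WT-c-kit-, with fewer genes tested. With no filter 16 members were higher over AML-WT-c-kit+. Same-numbered libraries correlated in their deviations at -0.07 to 0.24, and different-numbered libraries at -0.18 to 0.14. These ranges overlap and cannot decide whether the replicate numbers pair the libraries. With the number as a replicate block, 23 members were higher over AML-WT-c-kit+ (median log2 fold change 1.49), 4 were higher and 12 lower between the wild-type groups, and 11 were higher and 2 lower in the labelled libraries against AML-WT-c-kit-, Isg15 and Mx2 being lost.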
